A study of Homo sapiens with 6 samples.

Results

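A group of 10 genes of transforming growth factor β (TGF-β) and bone morphogenetic protein (BMP) signalling was followed in SK-Hep1 cells given an oligonucleotide against miR-21. They are the ligands TGFB1 and TGFB2, the receptors TGFBR1, TGFBR2, TGFBR3 and BMPR2, and the intracellular mediators SMAD2, SMAD3, SMAD4 and SMAD7. The members were every probe set whose platform annotation lists 1 of these 10 genes. That gave 36 probe sets of 54675 on the array, and no probe set that lists several genes names any of the 10. SK-Hep1 is a human cell line derived from a patient with a tumour of the liver. Cells in the anti-miR-21 group were transfected with 20 nM of the compound by a lipid reagent and collected after 16 hours, 3 arrays. Mock cells received PBS and no anti-miR-21 in the same transfection, 3 arrays. The mock samples therefore held no control oligonucleotide, and responses to any oligonucleotide and to the loss of miR-21 cannot be told apart. RNA is labelled as total RNA, although the collection protocol cites an Argonaute immunoprecipitation.

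In this pathway a ligand brings type II receptor kinases (TGFBR2 for TGF-β, BMPR2 for BMPs) together with type I kinases such as TGFBR1. TGFBR3, or betaglycan, is a coreceptor that presents ligand, TGF-β2 above all. For TGF-β, TGFBR1 phosphorylates SMAD2 and SMAD3, which enter the nucleus with SMAD4, and SMAD7 is an induced inhibitor that closes the loop. TGFBR2, BMPR2 and SMAD7 have each been reported as miR-21 targets in other cells, and SMAD proteins have been reported to bind the stem of the miR-21 precursor and to favour its processing.

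The sequences at the centre of the experiment are given first, because they define what the oligonucleotide blocks and where SMADs meet miR-21. In RefSeq (GRCh38.p14) the mature microRNA lies at chr17:59841273-59841294, plus strand. Of 2545 mature human sequences in that table, 2 carry the seed AGCUUAU (bases 2 to 8, in capitals), and a target bears its complement AUAAGCU. The second is miR-590-5p (chr7:74191213-74191234, plus strand), which has the same seed and a different remainder.
hsa-miR-21-5p: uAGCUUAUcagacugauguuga
hsa-miR-590-5p: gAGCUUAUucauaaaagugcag
In the hairpin precursor (chr17:59841266-59841337, plus strand), capitals mark the pentamer CAGAC, the core of the SMAD-binding box, at bases 16 to 20. It is present, on this strand, in 123 of 1562 human hairpins (7.87%).
MIR21 hairpin: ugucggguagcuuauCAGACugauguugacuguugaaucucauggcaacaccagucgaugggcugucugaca
Untranslated regions of the 10 genes were not analysed here, so no target site is shown for them. Mature miR-21 is not measured by these arrays, and its blockade was not checked.

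The values are log2 expression per probe set, made by the authors with GCRMA, and a probe set counts as kept when its mean over the 6 arrays is at least 4. Of the 36 probe sets, 27 were kept, and every one of the 10 genes had at least 1. The other 9, with means between 2.14 and 3.55, belong to TGFB1, TGFB2, TGFBR1, SMAD2 and SMAD4 and were not tested. Probe sets at or above 4 numbered 22320 to 22623 on the anti-miR-21 arrays and 22309 to 22460 on the mock arrays. On the first principal component, with 50.4% of the variance, the anti-miR-21 arrays lay at 3.51, 20.11 and 19.63 and the mock arrays between -19.95 and -7.25, so anti-miR-21 replicate 1 was the treated array closest to mock. Of the listed hepatocyte markers, 3 of 9 with a single-gene probe set were above 4, led by SERPINA1 at 11.92 and AFP at 4.22, with ALB at 2.85. Mesenchymal markers above 4 numbered 5 of 7, led by VIM at 15.71 and SPARC at 15.20, and epithelial markers 3 of 7, led by KRT8 at 14.69 and KRT19 at 14.22. Endothelial markers above 4 were ROBO4 at 8.29 and TEK at 4.66, 2 of 10, with PECAM1 at 3.02 and VWF at 2.27, and none of 4 leukocyte markers was above 4 (PTPRC 3.21, LYZ 3.02). The summed log2 values of the 10 endothelial markers were 34.85 to 35.59 on anti-miR-21 arrays and 34.35 to 34.63 on mock arrays, with no marker called. ROBO4 made up most of this, at a difference of 0.48 (limma adjusted p = 0.131), and its part in the results was not tested. The other summed marker lists overlapped between groups.

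The comparison asks which parts of the signalling chain differed in cells given anti-miR-21. One gene passed the test, the type II receptor TGFBR2, which rose (1.22-fold, a call lost with any 1 array left out, at adjusted p values of 0.0741 to 0.181), and the other 9 did not pass in either direction. Differences are anti-miR-21 minus mock on the log2 scale, from limma fitted over 22408 kept probe sets with Benjamini-Hochberg adjustment over all of them and a threshold of 0.05. Each array holds RNA of a whole culture, so more expressing cells and more RNA per cell cannot be told apart. Each gene is represented by its kept probe set with the highest mean. Of 10848 genes tested, 0.913% were called higher and 1.22% lower, or 2.13% either way, against 1 of the 10 members. The median difference over the 10 was 0.01, beside -0.02 over all genes, and 6 of the 10 were positive. For the 9 that did not pass, the 95% intervals of single differences reached from -0.43 to 0.45 in all, or from 0.740-fold to 1.37-fold of mock, and limma adjusted p values ran from 0.156 to 0.958. At an unadjusted p under 0.05, 2 of the 10 passed, TGFBR2 and TGFB2, and none in the lower direction, beside 18.1% of all genes tested (6.84% higher and 11.3% lower), so this count is close to that background.

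**Figure D1:**
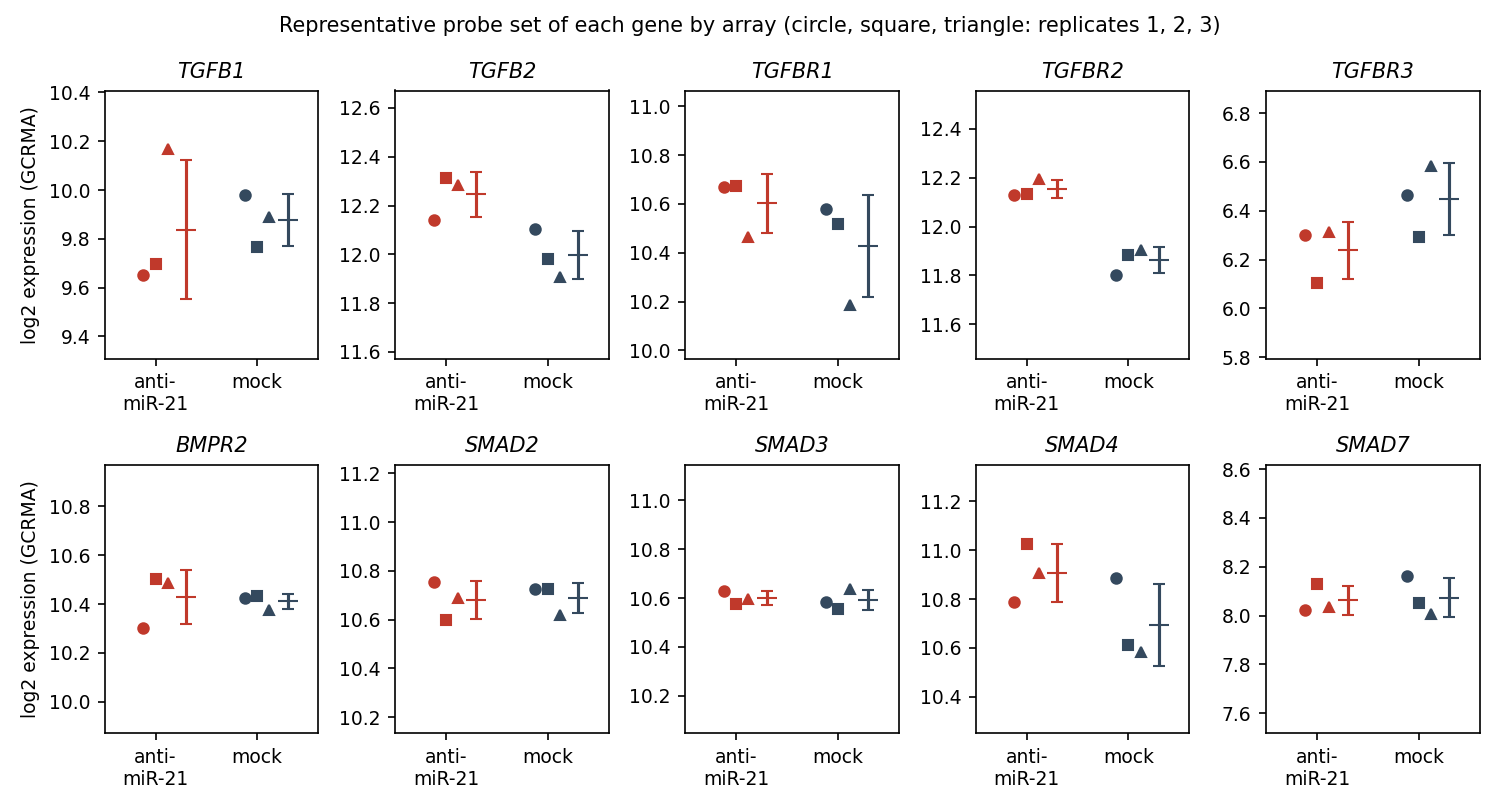
Log2 expression of the representative probe set of each of the 10 genes, anti-miR-21 arrays at left in red and mock arrays at right in dark blue; symbols are replicates, and bars are the mean ± SD over 3 arrays. Every panel spans the same 1.1 log2 units, so that only TGFBR2 and TGFB2 show groups that do not overlap.

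Among the ligands, TGFB2 encodes an isoform active in epithelial and mesenchymal cells. Its representative probe set, 228121_at, read 12.14, 12.31 and 12.28 in anti-miR-21 replicates 1 to 3, against 12.10, 11.98 and 11.91 in mock replicates 1 to 3. The groups did not overlap, but anti-miR-21 replicate 1 lay only just above mock replicate 1. The difference was 0.25 ± 0.075 SE, or 1.19-fold (95% interval 1.05 to 1.34-fold), and did not pass (limma adjusted p = 0.156). Genes with all treated arrays above all mock arrays made up 10.4% of those tested, and 2 of the 10 members were among them.

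The 3 other kept TGFB2 probe sets also had positive differences, of 0.15 (209909_s_at), 0.21 (220407_s_at) and 0.37 (209908_s_at), with limma adjusted p values of 0.465, 0.195 and 0.472. In 220407_s_at the mock arrays were tight at 9.94, 9.96 and 9.93, and the anti-miR-21 arrays read 10.02, 10.18 and 10.27, all above them. In 209908_s_at mock replicate 1 read 7.14, well above mock replicates 2 and 3 at 6.67 and 6.29, and within the anti-miR-21 values of 6.71, 7.27 and 7.22. The same mock array was also the highest mock array in 209909_s_at, at 11.07, above anti-miR-21 replicates 1 and 2 at 10.95 and 11.04. Leaving out mock replicate 1 moved the difference of the representative to 0.30 and its adjusted p to 0.106. With any 1 array left out, that difference ran from 0.20 to 0.30 and its limma adjusted p from 0.106 to 0.413, so it never passed.

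TGFB1 encodes the most widely expressed isoform. Its 1 kept probe set read 9.65, 9.70 and 10.17 in anti-miR-21 cells and 9.98, 9.77 and 9.89 in mock cells. The treated arrays spread on both sides of mock, with replicate 3 highest and the other 2 lowest of all 6. The difference was -0.04 ± 0.142 SE (limma adjusted p = 0.910), and its interval, 0.769 to 1.23-fold, was the widest of the 10 representatives. Without anti-miR-21 replicate 3 the difference was -0.20.

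Among the receptors, TGFBR2 is the kinase that binds TGF-β and activates TGFBR1. Its representative probe set, 208944_at, read 12.13, 12.13 and 12.20 in anti-miR-21 cells, against 11.80, 11.88 and 11.90 in mock cells. All treated arrays were above all mock arrays, and the gap between the groups was wider than the spread within either. TGFBR2 averaged 12.15 ± 0.04 in anti-miR-21 cells and 11.86 ± 0.05 in mock cells (SD, n = 3 each). It rose by 0.29 ± 0.052 SE, or 1.22-fold (95% interval 1.12 to 1.33-fold, limma adjusted p = 0.0477). The call of TGFBR2 sat near the threshold. With anti-miR-21 replicate 1, 2 or 3 left out, its limma adjusted p was 0.0741, 0.163 or 0.181, and with mock replicate 1, 2 or 3 left out it was 0.0771, 0.156 or 0.0930. TGFBR2 therefore lost its call with any 1 array removed, while its direction was the same each time, at differences between 0.26 and 0.31. Centring each array on its median gave 0.29 with an adjusted p of 0.0552, and averaging the gene's probe sets gave 0.31 with 0.0546. It passed without the filter (0.0484), with the filter at 6 (0.0357), with trend and robust moderation (0.0259) and after quantile normalization (0.0471).

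**Figure D2:**
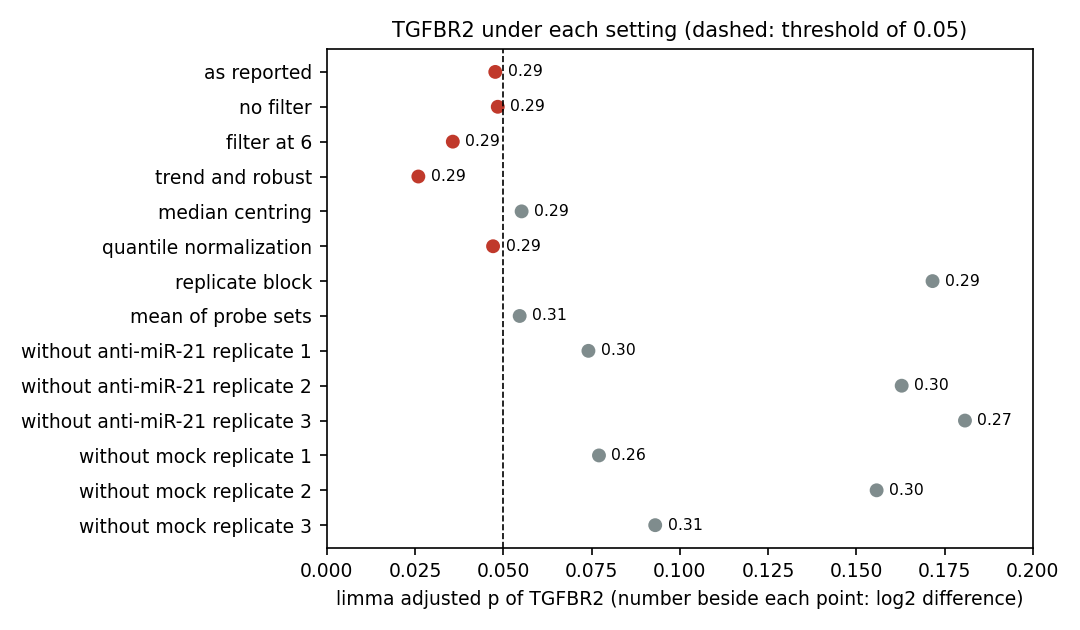
Limma adjusted p of TGFBR2 (horizontal axis) as reported and under each of 13 other settings, with the log2 difference printed beside each point; red points passed the dashed threshold of 0.05. The difference stays between 0.26 and 0.31 while the adjusted p runs from 0.0259 to 0.181.

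The second TGFBR2 probe set, 207334_s_at, read 8.72, 9.11 and 9.06 in anti-miR-21 cells and 8.71, 8.57 and 8.64 in mock cells. Its difference, 0.33 ± 0.110 SE or 1.25-fold, was close to that of 208944_at but did not pass (limma adjusted p = 0.196), and anti-miR-21 replicate 1 lay next to the highest mock array. With 1 array left out, it passed in 1 of 6 cases, without anti-miR-21 replicate 1 (0.45, adjusted p = 0.0363). Over the 6 cases its difference ran from 0.25 to 0.45 and its limma adjusted p from 0.0363 to 0.468. The difference between the responses of the 2 TGFBR2 probe sets was 0.04 (95% interval -0.24 to 0.31), and it did not pass (Simes-combined limma adjusted p = 0.974).

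TGFBR1, the type I kinase, had 1 kept probe set, with 10.67, 10.67 and 10.46 in anti-miR-21 cells and 10.58, 10.52 and 10.19 in mock cells. Replicate 3 was the lowest array in each group, and the groups overlapped. The difference was 0.17 ± 0.116 SE (limma adjusted p = 0.483), with an interval of 0.932 to 1.37-fold that includes the change seen for TGFBR2. Without mock replicate 3 it was 0.05 and without mock replicate 1 it was 0.25. Its other 2 probe sets had means of 2.79 and 2.28 and were not tested.

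TGFBR3 was the 1 receptor among the 10 genes with negative differences in both of its probe sets. The representative, 226625_at, read 6.30, 6.10 and 6.31 in anti-miR-21 cells and 6.46, 6.29 and 6.59 in mock cells, and mock replicate 2 fell within the treated range. Its difference was -0.21 ± 0.094 SE (limma adjusted p = 0.309). The dimmer probe set 204731_at read 5.07, 4.59 and 4.94 in anti-miR-21 cells, all below the mock values of 5.21, 5.22 and 5.30. Its difference was -0.38 ± 0.120 SE (limma adjusted p = 0.176), and the mock arrays spanned under 0.1 while anti-miR-21 replicate 2 was the lowest array. Neither probe set passed, and with any 1 array left out the representative stayed between -0.29 and -0.14.

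BMPR2, the type II receptor for BMPs, had 6 kept probe sets, the most of any of the 10 genes. The representative, 225144_at, read 10.30, 10.50 and 10.48 in anti-miR-21 cells and 10.43, 10.43 and 10.38 in mock cells, with a treated array on each side of mock. The difference was 0.02 ± 0.067 SE, with an interval of 0.906 to 1.13-fold. This leaves out the 1.22-fold measured for TGFBR2 but overlaps the interval of TGFBR2, 1.12 to 1.33-fold. The BMPR2 probe set 231873_at was at 0.10, and its 95% interval of -0.30 to 0.50 includes the TGFBR2 difference of 0.29. Of the 6, 4 had positive and 2 had negative differences, from -0.25 to 0.10. The extreme was 209920_at, which read 6.35, 6.44 and 6.30 in anti-miR-21 cells, all below 6.73, 6.65 and 6.46 in mock cells. Its difference was -0.25 ± 0.080 SE (limma adjusted p = 0.178). Relative to the mean of the other BMPR2 probe sets, 209920_at differed by -0.27 (95% interval -0.46 to -0.09), which did not pass over all genes (Simes-combined adjusted p = 0.435).

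Among the SMADs, SMAD2 and SMAD3 carry the TGF-β signal from receptor to nucleus. The SMAD2 representative, 203075_at, read 10.75, 10.60 and 10.69 in anti-miR-21 cells and 10.73, 10.72 and 10.62 in mock cells, a difference of -0.01 ± 0.062 SE with full overlap. Another probe set, 226563_at, differed by -0.02. Both s_at probe sets of SMAD2, a type whose probes match more than 1 transcript, had all treated arrays above all mock arrays. In 203077_s_at the values were 10.30, 10.42 and 10.28 in anti-miR-21 cells and 10.18, 10.19 and 10.08 in mock cells, a difference of 0.19 ± 0.062 SE. In 203076_s_at the difference was 0.16 ± 0.065 SE, and neither passed (limma adjusted p = 0.195 and 0.271). The SMAD2 probe sets were not shown to move apart (Simes-combined adjusted p = 0.682).

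The SMAD3 representative, 218284_at, read 10.63, 10.57 and 10.60 in anti-miR-21 cells and 10.58, 10.56 and 10.63 in mock cells. All 6 values lay within 0.1 of each other. The difference of 0.01 ± 0.049 SE has an interval of 0.929 to 1.09-fold, the narrowest among the 10 representatives. The dimmer 205396_at went another way, with 5.74, 5.93 and 6.11 in anti-miR-21 cells, all above 5.63, 5.54 and 5.63 in mock cells. Its difference was 0.33 ± 0.095 SE (limma adjusted p = 0.143). Against the mean of the other SMAD3 probe sets it differed by 0.36 (95% interval 0.15 to 0.57). SMAD3 had the smallest p of the 7 members tested for probe sets moving apart, 0.0194 before adjustment, and it did not pass (adjusted p = 0.268). None of the 7 passed, beside 1.42% of 5285 genes with 2 or more kept probe sets.

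SMAD4 is the shared partner of the receptor-activated SMADs. Its representative, 202527_s_at, read 10.79, 11.03 and 10.91 in anti-miR-21 cells and 10.89, 10.61 and 10.58 in mock cells. Mock replicate 1 sat above anti-miR-21 replicate 1, and the other mock arrays were lowest. The difference was 0.21 ± 0.101 SE (limma adjusted p = 0.335), and it was 0.31 (adjusted p = 0.120) without mock replicate 1. With any 1 array left out it ran from 0.15 to 0.31, at limma adjusted p values of 0.120 to 0.661. The second kept probe set, 235725_at, differed by 0.02.

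SMAD7, the inhibitory SMAD, has a single probe set, so its value rests on 1 stretch of the transcript. It read 8.02, 8.13 and 8.04 in anti-miR-21 cells and 8.16, 8.05 and 8.01 in mock cells. The groups overlapped throughout. The difference was -0.01 ± 0.062 SE (limma adjusted p = 0.944), and the interval of 0.896 to 1.10-fold leaves out the 1.22-fold measured for TGFBR2.

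Over all 27 kept member probe sets, TGFBR2 208944_at was the 1 called, beside 1.10% of all kept probe sets called higher and 1.07% lower, or 2.17% either way. Single 95% intervals excluded 0 for 9 of the 27, which is the count at an unadjusted p under 0.05, with 7 above and 2 below, beside 17.8% of all kept probe sets (8.06% above and 9.70% below). The same 9 had arrays that did not overlap, 33.3% of the member probe sets, beside 24.0% of all kept probe sets (11.4% higher and 12.6% lower). They were 2 of TGFB2, 2 of TGFBR2, 2 of SMAD2 and 1 of SMAD3 in the higher direction, and 1 each of TGFBR3 and BMPR2 in the lower. Probe sets of 1 gene share its transcripts and are not independent.

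**Figure D3:**
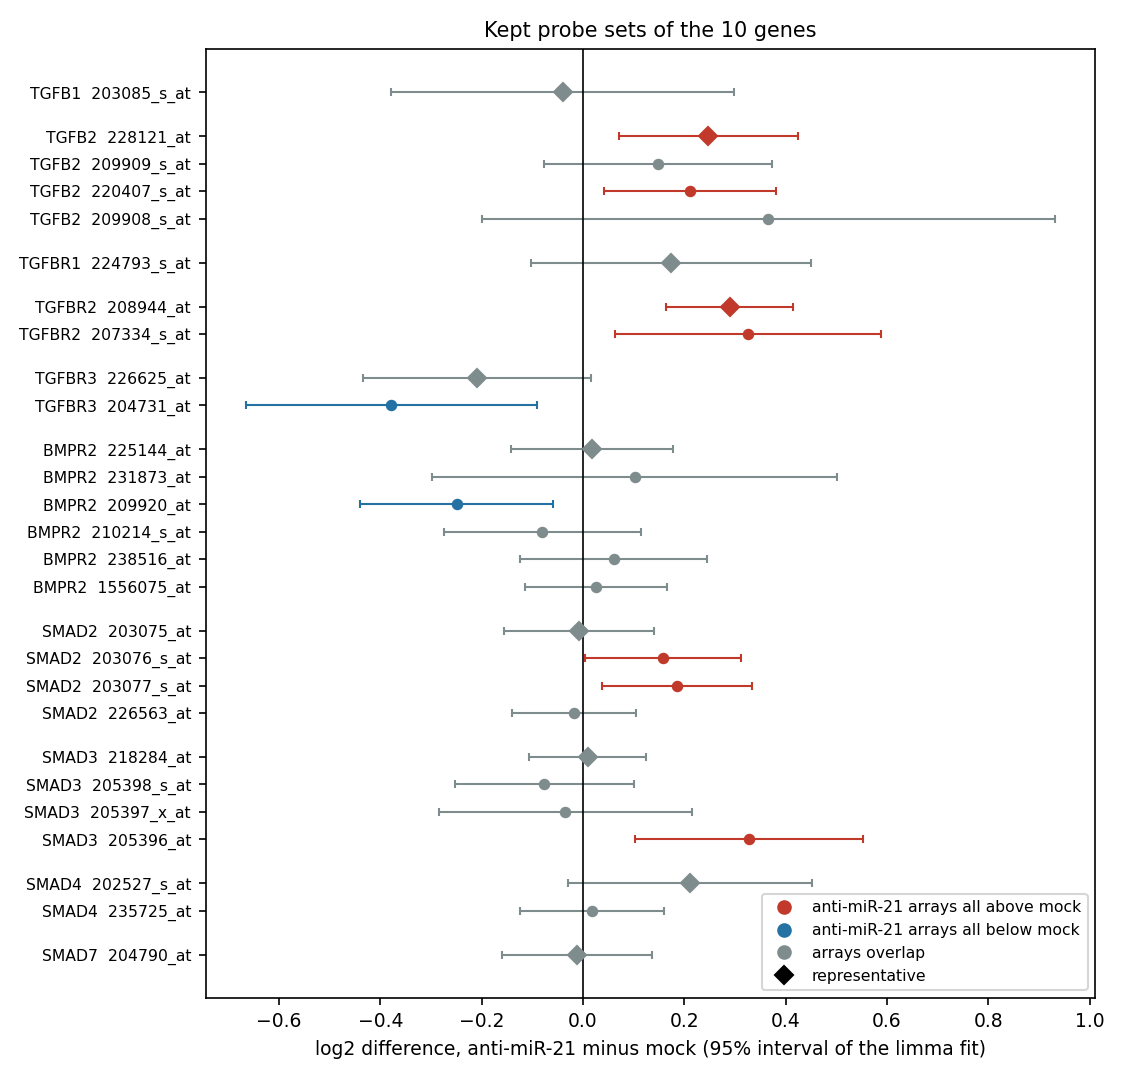
Log2 difference (anti-miR-21 minus mock) of the 27 kept probe sets with the 95% interval of the limma fit; diamonds are representatives, red and blue mark probe sets whose treated arrays all lay above or below mock. The 7 red probe sets belong to TGFB2, TGFBR2, SMAD2 and SMAD3, and the 2 blue ones to TGFBR3 and BMPR2.

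The wider pathway was described with 142 further genes in 8 lists, of which 89 had a kept single-gene probe set. None of the 89 passed in limma on its representative. At an unadjusted p under 0.05, 7 were higher and 10 lower, 19.1% of the 89, a share close to the 18.1% of all genes tested. The median difference over the 89 was 0.02, beside -0.02 over all genes, and 47 were positive.

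Of 26 other ligands, 3 were kept: INHBA, a subunit of activins, at 0.09, GDF11 at -0.12 and BMP8B at 0.07. None of these passed, and leaving out 1 array moved each of them: INHBA was at 0.04 without anti-miR-21 replicate 3, GDF11 at -0.01 without mock replicate 3, and BMP8B at -0.0062 without anti-miR-21 replicate 3. Of 15 genes for latency and activation of TGF-β, 11 were kept, with a median of -0.01. The latent TGF-β binding protein LTBP2, the integrin subunit ITGB5 and the microfibril protein FBN1 had differences of -0.28, -0.13 and -0.17 (limma adjusted p = 0.308, 0.317 and 0.497). LTBP2 was at -0.14 without mock replicate 3, and FBN1 was at -0.08 with replicate 3 of either group left out. The other kept LTBP2 probe set was at -0.03, and those of ITGB5 were at -0.44 and 0.02.

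Of 16 other receptors and coreceptors, 9 were kept (median 0.04). ACVR1B, the activin type I receptor that shares SMAD2 and SMAD3 with TGFBR1, read 9.73, 9.68 and 9.61 in anti-miR-21 cells, all below 9.85, 9.96 and 10.02 in mock cells. Its difference was -0.27 ± 0.065 SE (limma adjusted p = 0.0953). The other kept ACVR1B probe set, 205209_at, was dim and overlapped between groups, at -0.02 (limma adjusted p = 0.868). The average of both was -0.14. The activin type II receptor ACVR2A also had a difference of -0.27 (adjusted p = 0.121), but its other kept probe set was at 0.28, and the average of both was 0.00243. The coreceptor endoglin, ENG, was at 0.16 (adjusted p = 0.409), and at 0.08 without anti-miR-21 replicate 3.

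Of 15 secreted antagonists, 8 were kept (median -0.05). The 3 with the smallest p were BMPER and NOG, which bind BMPs, and FSTL3, which binds activins, at -0.27, -0.34 and -0.27 (limma adjusted p = 0.148, 0.187 and 0.175). In each of the 3, all anti-miR-21 arrays lay below all mock arrays. They were picked by their small p, so this largely follows from the choice and cannot be compared with the share of all genes. Of the other kept antagonists, CHRDL1 also had all treated arrays below mock (-0.09). FST had all of them above mock (0.14), and the rest overlapped.

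Of 17 other SMADs and partners, 15 were kept (median 0.06). ZFYVE9, which anchors SMAD2 and SMAD3 at endosomes, was at 0.26, the ubiquitin ligase TRAF6 at -0.19 and the kinase adaptor TAB1 at -0.12 (limma adjusted p = 0.174, 0.197 and 0.436). TAB1 lay at the filter level of 4, with means of 3.97 in anti-miR-21 cells and 4.10 in mock cells. Its difference was -0.06 without mock replicate 3. Of 9 corepressors, all were kept (median -0.00397), with ZEB1 at 0.19, PMEPA1 at -0.19 and SIN3A at -0.10 (adjusted p = 0.126, 0.271 and 0.347). PMEPA1 was at -0.13 without mock replicate 3. The other kept probe sets of PMEPA1 were at 0.05 and -0.27, and those of ZEB1 at 0.23 and 0.01.

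Of 15 ubiquitin and phosphatase regulators, 14 were kept (median -0.05). The ubiquitin ligases WWP2 and NEDD4L were at -0.36 and -0.14 (limma adjusted p = 0.128 and 0.283). The other kept NEDD4L probe sets were at -0.02, 0.04 and -0.02, all with overlapping arrays, and the average over its probe sets was -0.03. With 1 array left out, WWP2 passed in 1 of 6 cases, without anti-miR-21 replicate 1 (-0.46, adjusted p = 0.0436). Over the 6 cases its difference ran from -0.46 to -0.28 and its limma adjusted p from 0.0436 to 0.346. PPP2CA, the catalytic subunit of protein phosphatase 2A, gave opposite values in its 3 kept probe sets. The representative, 208652_at, read 13.44, 13.46 and 13.45 in anti-miR-21 cells against 13.57, 13.58 and 13.58 in mock cells, a difference of -0.13 (adjusted p = 0.198). By contrast, 235502_at read 8.53, 8.72 and 8.73 in anti-miR-21 cells against 8.13, 8.09 and 7.88 in mock cells, and it rose by 0.63 (adjusted p = 0.0231). The third, 238719_at, rose by 0.38 (adjusted p = 0.0329). The PPP2CA probe sets moved apart (Simes-combined adjusted p = 0.0244), so that no single direction describes the gene.

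Of 29 transcripts known to be induced by TGF-β or BMP, 20 were kept (median 0.01), and 12 had positive differences. The basement membrane collagen COL4A1 read 10.00, 10.11 and 10.04 in anti-miR-21 cells, all above 9.73, 9.31 and 9.62 in mock cells. Its difference was 0.50 ± 0.109 SE (limma adjusted p = 0.0821), its second probe set was at 0.37, and the average of both passed (0.43, adjusted p = 0.0212). The matricellular gene CCN2 and the AP-1 factor JUNB were each at 0.27 (limma adjusted p = 0.140 and 0.168).

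**Figure D4:**
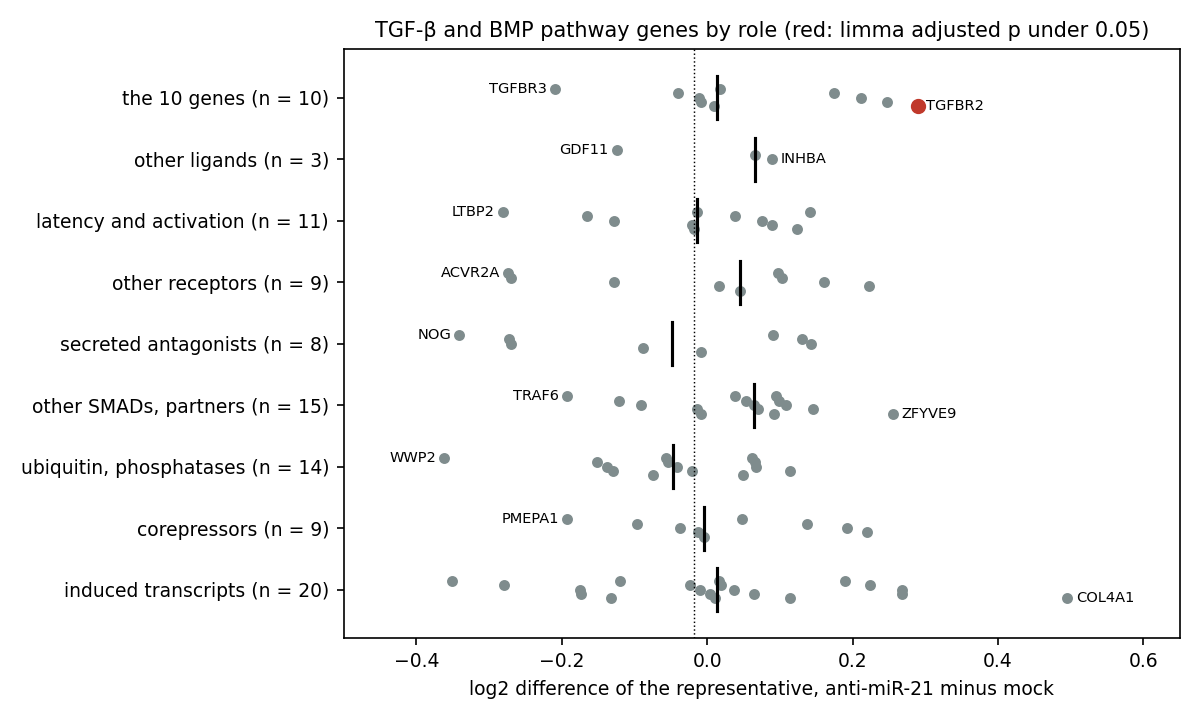
Log2 difference (anti-miR-21 minus mock) of the representative probe set of each kept gene, by role; black bars are list medians, the dotted line is the median of all genes tested (-0.02), and red marks the 1 gene that passed. Every list median lies between -0.05 and 0.07, and gene names are given for members and for genes in the text that lie at the end of their list.

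The genes most like TGFBR2 over the 6 arrays, by Pearson's r of representatives, were AP3M2 (0.994), C15orf40 (0.992), PDGFA (0.991), MAK16 (0.989) and PTPN14 (0.989). Over 2 groups of 3 arrays such values include the difference between the groups. TGFBR2 separated the groups, so genes chosen for likeness to it were bound to tend to differ between them. Their calls are therefore a description and no separate result, and are not comparable with the 0.913% of all genes called higher. AP3M2, PDGFA and PTPN14 rose, by 0.59, 0.29 and 0.32 (limma adjusted p = 0.0117, 0.0356 and 0.0318), and C15orf40 and MAK16 were at 0.23 and 0.24 (adjusted p = 0.0591 and 0.0890).

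Promoter sequence is shown for the members whose pathway reads it, since SMAD3 and SMAD4 bind CAGAC boxes and often act beside AP-1. RefSeq promoters (GRCh38.p14, 250 bases before to 50 after a start) gave 25 windows, at least 1 for each of the 10 genes, and windows of 1 gene can overlap. CAGAC, searched on both strands, was in 11 of the 25 (44.0%) and in 45.3% of all 35116 windows. By gene it was in 5 of the 10 (TGFB2, TGFBR1, BMPR2, SMAD3 and SMAD7) and in 50.0% of 27305 genes. The AP-1 motif TGANTCA was in 2 of the 25 windows, of TGFBR2 and SMAD3, and in 7.71% of all. The palindrome GTCTAGAC was in none of the 25 and in 0.202% of all windows. A match is a description of letters, not a bound site. In the lines that follow, capitals mark the motif in a TGFBR2 window (chr3:30606584-30606613, plus strand), where it is the AP-1 motif, and CAGAC in windows of TGFB2 (chr1:218345271-218345300, plus strand), BMPR2 (chr2:202376297-202376326, plus strand) and SMAD7 (chr18:48951076-48951105, minus strand).
TGFBR2: ttgaagttgagTGAGTCActcgcgcgcacg
TGFB2: ctttgttgaaggCAGACacgtggttcagag
BMPR2: ccgggagcgccgCAGACtggcagctgcggc
SMAD7: ttcttattttgcCAGACgtctcatgcgggg
TGFBR2, the 1 member that passed, has no CAGAC in either of its 2 windows. TGFB1, TGFBR3, SMAD2 and SMAD4, which did not pass, have none either, and a relation between motif and call was not tested.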

How the data were processed

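For each of 6 single-channel arrays the authors deposited a log2 value for 54675 probe sets. The submitters' processing notes name GCRMA, with no version, and how it was set is not given in the sources used. GCRMA draws dim probe sets towards a low common level, so differences of dim probe sets are understated. The deposited log2 values were not normalized again. Probe sets were named by the platform annotation (1 gene each, 41091 probe sets, symbols matched to RefSeq by Entrez ID), and control probe sets were left out. Those with a mean of at least 4 over the 6 arrays were kept (22408, 41.0%), and 10848 genes were each represented by the kept probe set with the highest mean. Differences were fitted with limma 3.58.1 in R 4.3.3 (lmFit, eBayes, 2 groups, no covariate), two-sided, adjusted over all kept probe sets; all adjusted p values come from limma. For probe sets moving apart, each was set against the mean of its gene's other kept probe sets per array, fitted with limma, combined per gene by Simes and adjusted over 5285 genes.

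On simulated data of 22408 probe sets, 90 of 100 changes of 1.5-fold and 97 of 100 of 2-fold were recovered, with 8 false calls. Smaller changes were not simulated. In the simulation of 5285 genes, 96 of 100 probe sets shifted by 2-fold were recovered, with 5 false calls. Noise was drawn independently for each probe set and array. Variation shared by the probe sets of an array was therefore not simulated, and recovery in the real data may be lower. The members and lists were chosen with earlier results of these data known. The text names every member, and from each list the called genes and the 3 with the smallest p; for markers, those with the highest means and, chosen after their values were seen, ALB, PECAM1 and VWF. Replicates are labelled biological, but nothing says that each was its own culture; p values then reflect only the spread among these 3 arrays per group, which may be technical, and the number of arrays limits precision. Same-numbered replicates were not paired by the labels.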

Additional observations from a re-analysis of the deposited data

How the results depend on the processing

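Of 13 other settings, TGFBR2 was called under 4 (no filter, filter at 6, trend and robust moderation, quantile normalization). The count of members higher was 0 with median centring, with the replicate block and with probe sets averaged, and 0 with any 1 array left out. No member was lower under any of the 13 settings. The count of member probe sets higher was 0 with median centring and the replicate block, and 0 to 1 with 1 array left out. Pathway genes higher numbered 2 with probe sets averaged (COL4A1 and PPP2CA), and pathway genes lower 0 to 1 with 1 array left out (WWP2 without anti-miR-21 replicate 1). Over all genes, 99 were higher and 132 lower as reported; 161 were higher with probe sets averaged, 16 higher and 16 lower with the replicate block, and 14 to 91 higher and 24 to 135 lower with 1 array left out (fewest without mock replicate 2). Replicate numbers did not pair the arrays: deviations of same-numbered arrays correlated at -0.361, -0.266 and -0.002, and 0 of 6 arrays correlated best with its own number. With the replicate block the adjusted p of TGFBR2 was 0.172; no other member was called with or without it.

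Some differences that had not passed changed sign. With quantile normalization SMAD2 was at 0.0045 and BMPR2 1556075_at at -0.0161; with probe sets averaged BMPR2 was at -0.0206, SMAD2 at 0.0793, ACVR2A at 0.00243 (-0.27 as reported) and PPP2CA at 0.29 (adjusted p = 0.0372, -0.13 as reported), which follows from their probe sets differing in sign. With 1 array left out the ranges were -0.20 to 0.0533 for TGFB1, -0.0185 to 0.0818 for BMPR2, -0.0451 to 0.0325 for SMAD2, -0.0087 to 0.0310 for SMAD3, -0.0451 to 0.0330 for SMAD7, -0.0062 to 0.17 for BMP8B, -0.0169 to 0.0548 for BMPR2 1556075_at, -0.0367 to 0.26 for BMPR2 231873_at, -0.0500 to 0.00287 for SMAD2 226563_at, -0.13 to 0.0671 for SMAD3 205397_x_at and -0.0331 to 0.0484 for SMAD4 235725_at; the cause was not tested. Median differences over all genes lay between -0.02 and 0.02 under every setting run. Averaging could not be applied to counts of probe sets.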
